A study of Mus musculus with 29 samples.

Results

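The genotype difference between HdhQ150 and wild-type mice was compared between 12 and 6 months of age in the caudate nucleus. The quantity described is the change of that difference, HdhQ150 minus WT at 12 months minus the same difference at 6 months, on the log2 scale. It rests on 21 of the series' 29 mice, 1 array each, and was computed for 19938 genes. The groups were 6 HdhQ150 mice of 12 months (4 labelled female, 2 male), 5 WT mice of 12 months (4 female, 1 male), 5 HdhQ150 mice of 6 months (4 female, 1 male) and 5 WT mice of 6 months (3 female, 2 male). All carried the mixed strain background 129/Ola x C57BL6/J, and the remaining 8 mice, 4 HdhQ150 and 4 WT of 18 months, were all labelled female. No treatment was given. Each mouse was measured at 1 age only, so the change compares groups of different animals and does not follow any mouse over time.

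HdhQ150 mice model Huntington's disease by a knock-in, in which an expanded CAG repeat stands in the mouse's own Htt gene, so the mutant protein is made wherever Htt is normally expressed. The zygosity and the repeat length are not given in the labels used here. The caudate nucleus is part of the striatum, and most of its neurons are GABAergic projection neurons. These cells express dopamine receptors, the phosphatase regulator Ppp1r1b and the phosphodiesterase Pde10a, and loss of their characteristic transcripts is a known feature of the disease. A genotype difference that grows with age is the pattern known of progressive models, and the change of the difference measures that growth gene by gene.

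The labelled tissue was checked against its defining markers. Over all 29 arrays the projection neuron genes Ppp1r1b and Penk lay at log2 levels of 10.59 to 11.76 and 11.33 to 12.81. Slc17a7, the vesicular glutamate transporter of cortical excitatory neurons, ranged far more widely, from 6.82 to 11.77. A pair of mice stood apart. The 12-month mouse WT-454 correlated with its group at 0.959 on average, against 0.982 to 0.993 for the other mice of 6 and 12 months. The 6-month mouse HdhQ150-1023 is labelled female, but its Xist level was 5.95, against 11.11 to 11.64 in the other labelled females and 5.50 to 6.13 in labelled males. Values without either mouse are given beside some of the results they move. A result without such values may move too.

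The change passed the threshold for 1 gene. Ryr1 encodes a ryanodine receptor, a channel that releases calcium from the endoplasmic reticulum. It is the main release channel of skeletal muscle and is also expressed in neurons. Its difference between genotypes was larger at 12 months than at 6 months by 0.78 on the log2 scale, HdhQ150 being the lower genotype at both ages. The region around its start site is shown because it belongs to the gene the comparison turns on. This RefSeq promoter window of 300 bases begins 222 bases before the gene's outermost annotated start and covers chr7:29125102-29125401 on the minus strand of GRCm38.p6, written along the gene. Capitals mark GC boxes (GGGCGG, searched on both strands).
Ryr1 promoter: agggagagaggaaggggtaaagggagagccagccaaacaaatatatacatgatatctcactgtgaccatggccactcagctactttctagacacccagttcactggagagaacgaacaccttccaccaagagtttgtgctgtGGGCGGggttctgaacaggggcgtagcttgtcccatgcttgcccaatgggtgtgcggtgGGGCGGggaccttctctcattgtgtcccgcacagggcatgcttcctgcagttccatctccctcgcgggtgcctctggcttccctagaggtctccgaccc
The window holds 2 GC boxes, at bases 143 to 148 and 202 to 207, and 35.7% of 32851 RefSeq promoters of this length hold at least 1. It holds 0 matches to the cAMP response element TGACGTCA, which 1.79% of promoters hold, and 0 to the E-box CACGTG, which 7.15% hold. The TATA box TATAAA (13.6% of promoters), the Egr site GCGTGGGCG (0.612%) and 1 form of the serum response element (0.0639%) also had 0 matches on either strand.

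At 12 months the 6 HdhQ150 mice had Ryr1 levels of 7.34, 7.11, 7.29, 7.41, 7.44 and 7.10, against 8.30, 8.39, 8.38, 8.52 and 8.43 in the 5 WT mice. At 6 months the 5 HdhQ150 mice had 7.51, 7.55, 7.52, 7.50 and 7.71, against 7.83, 7.99, 7.87, 7.84 and 7.89 in the 5 WT mice. Every HdhQ150 mouse lay below every WT mouse of its age, at both ages, and the gap between the groups was wider at 12 months. Of all genes, 0.0953% were below WT without overlap at both ages, 0.908% at 12 months and 1.35% at 6 months. The fitted difference was −1.12 ± 0.072 (SE) at 12 months, 2.17-fold lower in HdhQ150 (limma adjusted p = 2.57e-11). At 6 months it was −0.34 ± 0.075, 1.26-fold lower (adjusted p = 0.11). The change was −0.78 ± 0.10, with a 95% interval of −0.99 to −0.57 (limma adjusted p = 0.00068 over all genes). Ryr1 has 1 probe set in the table, on chromosome 7.

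**Figure D1:**
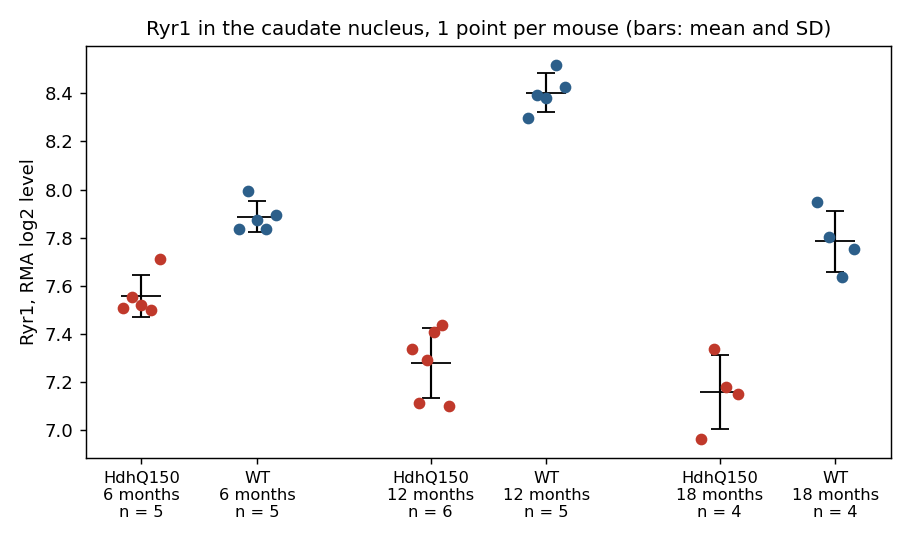
RMA log2 level of Ryr1 in each mouse (points), with mean and SD (bars), for HdhQ150 and WT mice of 6, 12 and 18 months. HdhQ150 mice lie below WT mice at each age without overlap, and the 5 WT mice of 12 months lie at 8.30 to 8.52.

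The change of Ryr1 splits into a part in each genotype. Within WT the level rose by 0.51 ± 0.075 between 6 and 12 months (adjusted p = 3e-05). Within HdhQ150 it fell by 0.27 ± 0.072 (adjusted p = 0.0067). Many genes differed between 12 and 6 months in either genotype: 4599 genes (23.1%) passed the threshold in HdhQ150 and 5121 (25.7%) in WT. Different animals make up each age, and whether dissection or scan batch bears on these counts was not tested. The mice of 18 months, which do not enter the change, had 6.96, 7.34, 7.18 and 7.15 in HdhQ150, against 7.95, 7.80, 7.64 and 7.75 in WT. These groups did not overlap either, as was the case with HdhQ150 lower for 1.5% of all genes. The difference at 18 months was −0.63 ± 0.083 (adjusted p = 0.00025), and WT mice of 18 months were lower on average than those of 12 months. The other ryanodine receptors, Ryr2 and Ryr3, had changes of −0.053 ± 0.16 (adjusted p = 0.98) and −0.072 ± 0.13 (adjusted p = 0.96). The Ryr1 change was −0.81 without mouse WT-454, −0.75 without mouse HdhQ150-1023 and −0.78 without both, with adjusted p of 0.00087, 0.0023 and 0.0021.

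Over all genes, 1 of 19938 passed in the change (0.00502%), 1 lower (0.00502%) and 0 higher (0%), by limma at an adjusted p under 0.05. At an unadjusted p under 0.05 there were 1297 genes (6.51%), 708 higher (3.55%) and 589 lower (2.95%). A positive change means that HdhQ150 minus WT was more positive at 12 months than at 6 months, and a negative change that it was more negative. The next smallest adjusted p was 0.709. The median change over all genes was −0.0018, and 90% of genes lay between −0.22 and 0.26. Only 94 genes had a change of at least 0.5 in size, 43 higher and 51 lower. The standard error of the change was 0.13 at the median gene, which gives a 95% interval of 0.26 to either side. For 16721 genes the interval lay within 0.5 of zero. For the others, Ryr1 among them, it reached 0.5 or beyond, so the change was not bounded within that size.

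The 10 genes with the smallest p among those with a negative change include several that act in neuronal signalling. Ryr1 was the one that passed, and the others had adjusted p of 0.709. Rap1gap, which switches off the small GTPase Rap1, had 9.62, 9.37, 9.55, 9.71, 9.56 and 9.58 in HdhQ150 mice of 12 months, against 9.85, 9.60, 9.92, 9.79 and 9.88 in WT. At 6 months HdhQ150 had 9.75, 9.50, 9.71, 9.55 and 9.57, against 9.48, 9.46, 9.42, 9.49 and 9.40 in WT. The 6-month HdhQ150 mice were all above the WT mice, as 1.84% of all genes were, whereas the 12-month groups overlapped with HdhQ150 lower on average. Its change was −0.39 ± 0.092.

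Camk1g, a calcium and calmodulin dependent kinase, ran from 7.76 to 8.44 in HdhQ150 mice of 12 months (median 8.11), against 8.67, 8.60, 8.63, 8.63 and 8.83 in WT. At 6 months HdhQ150 had 8.56, 8.81, 8.74, 8.73 and 8.90, against 8.74, 8.69, 8.92, 8.58 and 8.66 in WT. The groups were apart at 12 months and mixed at 6 months. The change was −0.56 ± 0.14, from a difference of −0.53 at 12 months (adjusted p = 0.0033) and 0.026 at 6 months (adjusted p = 0.94). Rgs14, a regulator of G protein signalling, had 7.45 to 7.95 in HdhQ150 mice of 12 months (median 7.79), against 8.19, 8.36, 8.33, 8.25 and 8.28 in WT. At 6 months HdhQ150 had 8.18, 7.95, 8.10, 8.06 and 7.74, against 7.86, 8.24, 8.02, 8.01 and 8.02 in WT. Its change was −0.49 ± 0.13, and here too only the 12-month groups were apart.

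Abi3bp, an extracellular matrix protein, had the largest change in size among these 10 genes. Its levels were 7.04, 7.10, 6.97, 7.43, 7.66 and 7.40 in HdhQ150 mice of 12 months, against 7.77, 8.68, 8.25, 8.53 and 8.74 in WT. At 6 months they were 8.97, 8.96, 8.61, 8.67 and 7.93 in HdhQ150, against 7.82, 9.33, 8.11, 8.27 and 7.91 in WT. The 6-month WT mice spread over more than a log2 unit, and 1 of them, mouse WT-1004 at 9.33, was the highest of all 21. The change was −1.46 ± 0.34 (adjusted p = 0.709). Without mouse WT-1004 it was −1.68 (adjusted p = 0.013), without mice WT-454 and HdhQ150-1023 together −1.84 (adjusted p = 0.035), and in labelled females without mouse HdhQ150-1023 −1.83 (adjusted p = 0.01). Over all 36 alternatives its adjusted p ran from 0.01 to 1.

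Pitpnm2, which moves phosphatidylinositol between membranes, had 9.93, 9.56, 9.82, 9.97, 9.71 and 9.65 in HdhQ150 mice of 12 months, against 10.23, 10.24, 10.12, 9.94 and 10.10 in WT. At 6 months it had 10.31, 10.25, 10.19, 10.24 and 9.97 in HdhQ150, against 10.06, 10.18, 10.17, 9.99 and 9.86 in WT. The groups overlapped at both ages, with the means in opposite order. Its change was −0.52 ± 0.12. The other 4 genes were Car11, a carbonic anhydrase-related protein without enzyme activity (−0.31), the Polo-like kinase family member Plk5 (−0.63), the olfactory receptor Olfr1275 (−0.75) and Tmem94 (−0.31). Olfr1275 was dim, at 4.61 to 6.10 in all mice, below the array medians of 6.91 to 7.05. In all 10 genes HdhQ150 was lower at 12 months, and 7 of the 10 passed the threshold there. At 6 months the difference was above zero in 6 of the 10 and none passed. Of all genes, 47.3% were below zero at 12 months and 52.3% above zero at 6 months. The 10 were chosen by the change, so their counts at 6 and 12 months follow in part from the choice and support no direction. At 18 months the difference was below zero in all 10, and Ryr1 and Car11 passed. The share of all genes below zero at 18 months is not given here, so this count supports no direction.

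The 10 genes with the smallest p among those with a positive change did not pass, with changes of 0.26 to 0.49 and unadjusted p of 9.4e-05 to 0.0015. Several have housekeeping roles. Pgk1, a glycolytic enzyme that makes ATP, had 9.95, 9.99, 10.02, 10.17, 10.16 and 10.23 in HdhQ150 mice of 12 months, against 9.82, 10.01, 9.96, 9.94 and 10.13 in WT. At 6 months it had 9.97, 10.04, 9.93, 9.94 and 10.16 in HdhQ150, against 10.20, 10.19, 10.24, 10.21 and 10.32 in WT. The 6-month HdhQ150 mice all lay below the WT mice and the 12-month groups overlapped, which gave a change of 0.37 ± 0.082. Paics, an enzyme of purine synthesis, had the same arrangement, with 9.31 to 9.58 in HdhQ150 mice of 12 months (median 9.41), against 9.28, 9.17, 9.37, 9.44 and 9.42 in WT. At 6 months Paics had 9.66, 9.73, 9.77, 9.72 and 9.85 in HdhQ150, against 9.90, 9.91, 10.02, 10.08 and 9.96 in WT. Its change was 0.34 ± 0.087.

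Sfmbt2, a Polycomb group protein, differed from these in that HdhQ150 was the higher genotype at both ages. Its levels were 7.10, 7.27, 7.11, 6.98, 7.02 and 7.16 in HdhQ150 mice of 12 months, against 6.57, 6.64, 6.64, 6.58 and 6.53 in WT. At 6 months they were 6.92, 6.83, 6.79, 6.76 and 6.95 in HdhQ150, against 6.73, 6.64, 6.54, 6.69 and 6.77 in WT. The 12-month groups were apart with HdhQ150 above, as 0.687% of all genes were, and the 6-month groups overlapped by 1 pair of near-equal levels. The difference was 0.51 at 12 months (adjusted p = 1.18e-05) and 0.18 at 6 months (adjusted p = 0.2), and the change was 0.33 ± 0.087 (adjusted p = 0.709). The other 7 genes were the ubiquitin-like modifier Sumo2 (0.26), the epithelial sodium channel subunit Scnn1a (0.45), the Golgi membrane protein Tmem165 (0.34), the lysosomal membrane protein Laptm4a (0.31), the DNA damage tolerance ligase Rad18 (0.27), Rmdn2 (0.46) and Mospd1 (0.49). Of the 10, all had a difference above zero at 12 months and 9 had one below zero at 6 months, Sfmbt2 being the exception. In WT all 10 were lower at 12 months than at 6 months. Of all genes, 52.7% were above zero at 12 months and 47.7% below zero at 6 months. These 10 too were chosen by the change, so such counts follow in part from the choice and support no direction. Sumo2 and Pgk1 have near-identical copies elsewhere in the genome, and what their probe sets read beside the gene was not tested.

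**Figure D2:**
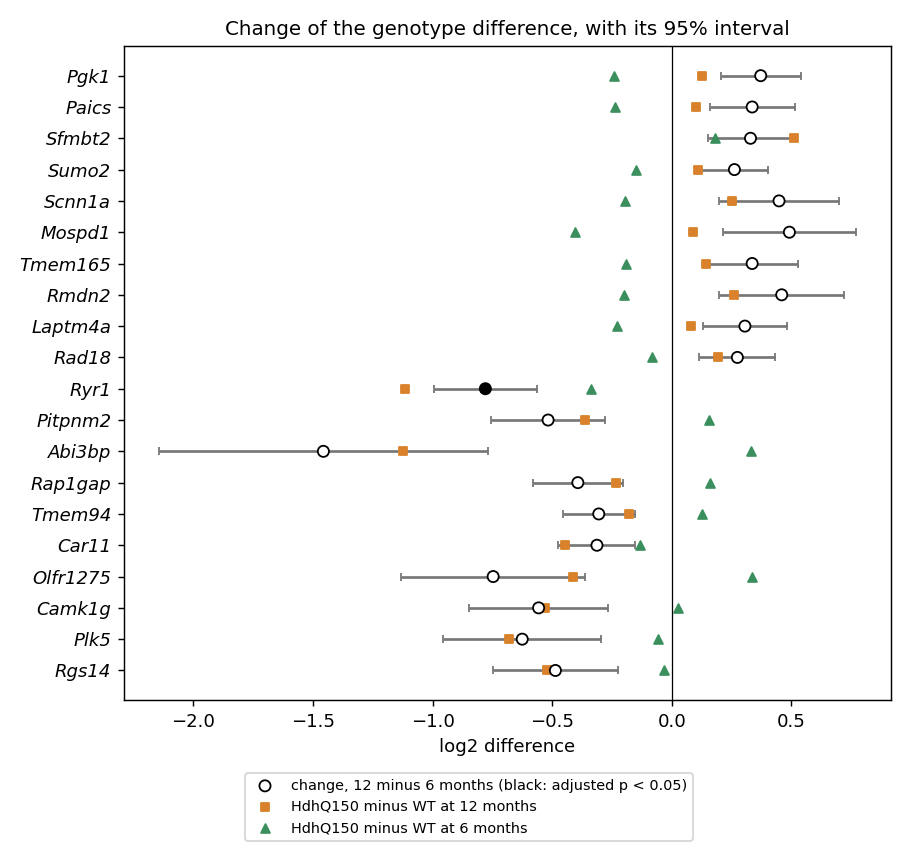
Change of the genotype difference, 12 minus 6 months (circles, with 95% interval), for the 10 genes of smallest p in each direction, with HdhQ150 minus WT at 12 months (squares) and at 6 months (triangles), in log2 units. Ryr1 is the only filled circle, at −0.78, and its differences at both ages lie left of zero.

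The change was then described for genes that passed the threshold at 1 age. At 12 months 187 genes passed (0.938%), 67 higher in HdhQ150 (0.336%) and 120 lower (0.602%). At 6 months 5 passed (0.0251%), 1 higher (0.00502%) and 4 lower (0.0201%). Both counts moved with single mice: the 12-month count was 115 without mouse HdhQ150-462 and 440 without mouse WT-454, and the 6-month count was 188 without mouse HdhQ150-1023. Without mice WT-454 and HdhQ150-1023 together the order was reversed, with 868 genes past at 6 months and fewer at 12 months. With array weights it was reversed too, with 1330 at 6 months and 656 at 12 months. In all other alternatives more genes passed at 12 months. So few calls at 6 months next to many at 12 months do not show a change, and the test of the change is the one given above.

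Of the 187 genes of 12 months, 170 had a difference of the same sign at 6 months, a share of 90.9%, against 57.9% of all genes. For the 67 higher genes the median difference was 0.31 at 12 months and 0.15 at 6 months, and for the 120 lower genes it was −0.38 and −0.17. The change pointed away from zero in 183 of the 187, and 79 (42.2%) had an unadjusted p under 0.05, against 6.51% of all genes. These genes were chosen on the 12-month arrays, which also enter the change, so the counts describe them and support no direction. The lower genes included the cannabinoid receptor Cnr1, the immediate early transcription factor Egr2, the adhesion protein Cntnap3 and the phosphatase Pdp1, with changes of −0.4, −0.63, −0.25 and −0.29. Among the higher genes were the largest RNA polymerase II subunit Polr2a (0.27), the tetraspanin Cd82 (0.3) and the channel-like protein Tmc3 (0.24).

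Egr2 had 7.51, 7.33, 7.02, 7.32, 7.31 and 7.37 in HdhQ150 mice of 12 months, against 8.16, 8.44, 8.10, 8.57 and 8.66 in WT. At 6 months it had 7.53, 7.49, 8.06, 7.35 and 7.06 in HdhQ150, against 7.26, 7.55, 8.17, 8.23 and 8.12 in WT. The groups were apart by more than 0.5 at 12 months and mixed at 6 months, where both genotypes spread widely. The change was −0.63 ± 0.23 (adjusted p = 0.709). Cnr1 ran from 7.93 to 8.44 in HdhQ150 mice of 12 months (median 8.33), against 8.71, 8.98, 9.08, 9.01 and 8.71 in WT. At 6 months it had 8.35, 8.46, 8.62, 8.30 and 8.56 in HdhQ150, against 8.60, 8.43, 8.72, 8.72 and 8.78 in WT. Its change was −0.4 ± 0.14 (adjusted p = 0.709).

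**Figure D3:**
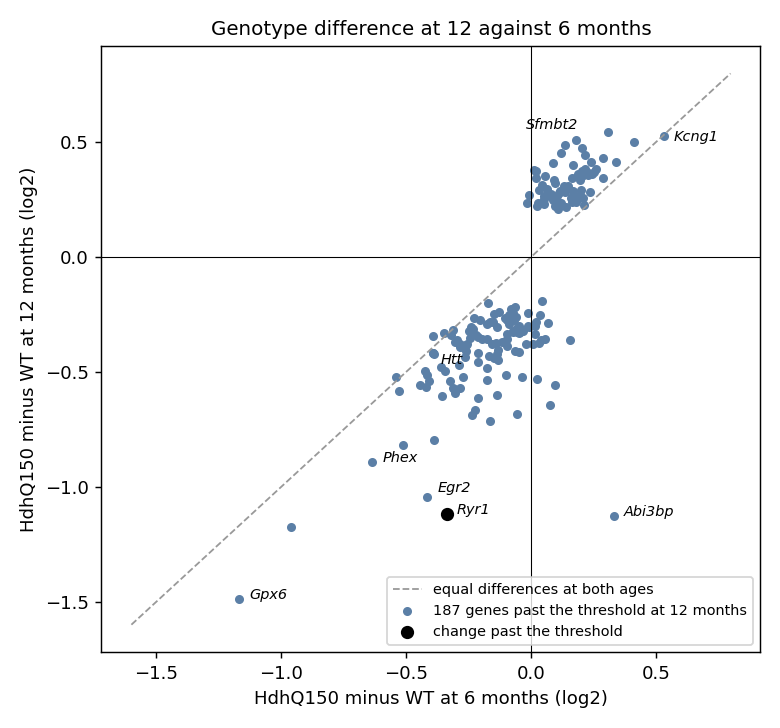
HdhQ150 minus WT at 12 months (vertical axis) against the same difference at 6 months (horizontal axis), in log2 units, for the 187 genes past the threshold at 12 months. The dashed line marks equal differences at both ages; Ryr1 (black) lies at −1.12 and −0.34, and Htt lies near the line.

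The 5 genes of 6 months all passed at 12 months as well, and the change passed in none of them. Htt, the gene that carries the repeat, had 8.62, 8.50, 8.57, 8.73, 8.80 and 8.68 in HdhQ150 mice of 12 months, against 8.87, 9.14, 9.13, 9.07 and 9.20 in WT. At 6 months it had 8.77, 8.74, 8.73, 8.75 and 8.88 in HdhQ150, against 9.15, 9.12, 9.15, 9.19 and 9.11 in WT. The genotypes were apart at both ages by similar amounts, −0.42 at 12 months and −0.39 at 6 months. The change was −0.024 ± 0.086, with a 95% interval of −0.2 to 0.15 (adjusted p = 0.98).

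Gpx6, a glutathione peroxidase family member, had the largest difference of the 5 genes at either age. Its levels were 6.56 to 6.93 in HdhQ150 mice of 12 months (median 6.68), against 8.03, 8.58, 8.12, 8.17 and 8.16 in WT. At 6 months they were 6.58, 6.74, 6.56, 6.13 and 6.76 in HdhQ150, against 7.20, 7.56, 7.72, 7.75 and 8.17 in WT. The groups were apart at both ages, and the differences were −1.49 and −1.17. The change of −0.32 had a 95% interval of −0.69 to 0.056, and a growth or a constant difference could not be told apart. The peptidase Phex (−0.25), the potassium channel subunit Kcng1 (−0.0046) and the sterol regulator Insig1 (0.017) made up the 5, and the intervals of Kcng1 and Insig1 allowed changes of up to about 0.21 and 0.31.

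The 18-month mice gave a choice of genes that does not use the 21 arrays, although the fit shares the sex term and the spread. There 27 genes passed (0.135%), 11 higher in HdhQ150 (0.0552%) and 16 lower (0.0802%). In all 27 the change between 6 and 12 months pointed in the direction of the 18-month difference, as it did in 58.8% of all genes. Without mouse WT-454 it did so in 26 of 27 and in 50.2% of all genes, and without both mice in 25 of 27 and in 49.6%. For the 11 higher genes the median difference was 0.15 at 6 months, 0.31 at 12 months and 0.5 at 18 months. For the 16 lower genes it was −0.27 at 6 months, −0.52 at 12 months and −0.61 at 18 months. All 27 were chosen by their 18-month difference, so the 18-month medians follow in part from the choice. Taken singly, 8 of the 27 changes had an unadjusted p under 0.05, against 6.51% of all genes, and Ryr1 alone passed.

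Named by role, these genes included the neuropeptide precursor Penk (change −0.099 ± 0.13), the phosphodiesterase Pde10a (−0.15 ± 0.11), the sodium channel subunit Scn4b (−0.31 ± 0.17) and the GABA-A receptor subunit Gabra2 (−0.46 ± 0.22). The bicarbonate-family transporter Slc4a11 had a change of −0.44 ± 0.13, Car11 −0.31 ± 0.079 and Cd82 0.3 ± 0.097. Enpp6, a phosphodiesterase of newly formed oligodendrocytes, had a difference of 0.34 at 6 months, 0.41 at 12 months and 0.76 at 18 months. Its change from 6 to 12 months was 0.07 ± 0.14 and turned sign in some alternatives. Pdk4, a kinase that restrains pyruvate dehydrogenase, was the 1 gene of 27 without the 18-month sign at 6 and 12 months, with a change of 0.0089.

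**Figure D4:**
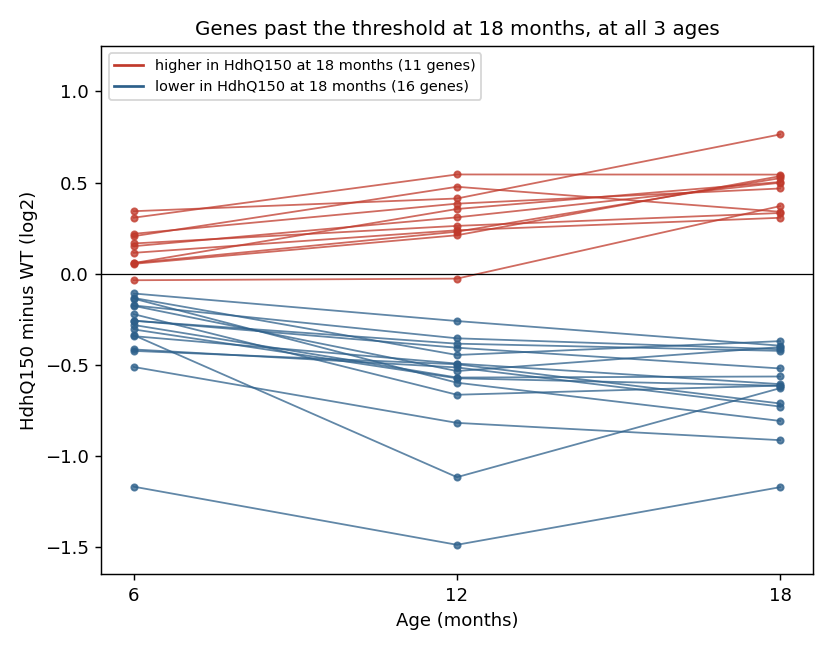
HdhQ150 minus WT in log2 units at 6, 12 and 18 months for the 27 genes past the threshold at 18 months, 11 higher (red) and 16 lower (blue). All but 1 of the lines lie on 1 side of zero at all ages, and Ryr1 runs from −0.34 at 6 months through −1.12 at 12 months to −0.63 at 18 months.

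Dopamine system and peptide genes of the projection neurons did not pass the threshold. Drd1, the D1 receptor of the direct pathway, had −0.08 ± 0.14, and Drd2, the D2 receptor of the indirect pathway, −0.085 ± 0.14. Ppp1r1b had −0.09 ± 0.13, the opioid precursor Pdyn −0.24 ± 0.18 and the tachykinin precursor Tac1 0.4 ± 0.2 (adjusted p = 0.77). Gfap, the intermediate filament of astrocytes, had 0.26 ± 0.22.

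Changes were counted in 30 lists of genes by cell type and pathway, and 1 listed gene passed, Ryr1, which stands in the lists of projection neuron markers and of calcium signalling. The lists were chosen with earlier results of these data known. Counts, medians and list means therefore describe the listed genes and support no direction. Of all genes, 50.5% had a change below zero, and 6.51% had an unadjusted p under 0.05 (3.55% higher and 2.95% lower). Projection neuron markers had 26 of 29 changes below zero, with a median of −0.11 and 5 at an unadjusted p under 0.05, all negative, among them Cnr1, Ppp1r16b (−0.29) and the potassium channel Kcnh4 (−0.26). Their median difference was −0.25 at 12 months, where 8 passed, all lower, and −0.14 at 6 months, where 0 passed. Averaged over the list and set relative to each gene's mean over the 21 mice, the level was 0.0081 ± 0.07 in HdhQ150 mice of 12 months and 0.31 ± 0.057 in WT, and −0.23 ± 0.17 in HdhQ150 mice of 6 months and −0.083 ± 0.066 in WT (SD). The 12-month groups did not overlap and the 6-month groups did. In bulk tissue, fewer cells of a type and less RNA per cell cannot be told apart. The list's median was −0.07 without mouse HdhQ150-1023, −0.18 without mouse HdhQ150-1017 −0.12 without both mice that stood apart and −0.22 in labelled females.

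Genes of the direct pathway had a median change of 0.035 (5 of 9 above zero) and those of the indirect pathway −0.064 (5 of 8 below). Neither sign held: the direct list stood at −0.053 without mouse WT-454 (4 of 9 above) and −0.099 in labelled females, and the indirect list at 0.048 without mouse HdhQ150-1023 (5 of 8 above). Interneuron markers had 11 of 14 below zero with a median of −0.17. The 4 at an unadjusted p under 0.05 were somatostatin (Sst, −0.41), the nitric oxide synthase Nos1 (−0.31), the transcription factor Lhx6 (−0.34) and neuropeptide Y (Npy, −0.3). Without mouse WT-454, 2 interneuron genes had such a p and the median was −0.11, and with array weights the median was −0.053. Cortical markers had lower list means at 12 months than at 6 months in both genotypes. The mean of the cortical list stood at −0.58 ± 0.36 in HdhQ150 mice of 12 months and −0.28 ± 0.36 in WT, and at 0.46 ± 0.31 in HdhQ150 mice of 6 months and 0.51 ± 0.27 in WT (SD of the list mean). At 18 months the list stood at 0.56 ± 0.35 in HdhQ150 mice and 0.68 ± 0.28 in WT (SD). Its change had a median of −0.093 (10 of 13 below zero), and that of Slc17a7 was −1.02 ± 0.63. The median ran from −0.27 without mouse WT-1011 to 0.029 without mouse HdhQ150-1003 when single mice were left out, and was −0.24 without mouse HdhQ150-1023 and 0.13 in labelled females. Thalamic and septal markers had a median of 0.2 (7 of 8 above) and choroid plexus markers 0.22 (9 of 11 above), but without mouse WT-1020 these medians were 0.037 and 0.0025. Without mouse WT-454 the choroid plexus median was 0.34. The choroid plexus list ranged from −0.48 to 1.22 among the 6-month WT mice. Whether the amount of cortex, septum or choroid plexus in a sample bears on the neuronal lists was not tested.

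Among glia, oligodendrocyte markers had 10 of 11 changes above zero with a median of 0.22, led by the myelin enzymes Cnp (0.35) and Aspa (0.54). The oligodendrocyte list's median difference was 0.009 at 12 months and −0.093 at 6 months. Without mouse WT-454 its median change was 0.14, without mouse WT-1020 0.13 and with array weights 0.058. Mouse WT-454 had Cnp at 10.19 and Aspa at 7.21. The other WT mice of 12 months had 10.51 to 10.77 and 8.02 to 8.13. Microglia markers went the other way, with 12 of 13 below zero and a median of −0.13. Their median difference was −0.026 at 12 months and 0.135 at 6 months. The complement genes C1qc (−0.4) and C1qb (−0.43) and the microglial Tmem119 (−0.24) had unadjusted p under 0.05. Astrocyte (0.054), precursor (−0.011), vessel (−0.033) and ependyma (−0.04) medians were small, and without mouse WT-454 the ependyma median was 0.063. Without mouse HdhQ150-462 the precursor and vessel medians were 0.026 and 0.0014. The blood list had 1 measured gene, Alas2 (−0.18).

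Immediate early genes, which neurons switch on within minutes of activity, had 17 of 21 changes below zero and a median of −0.22. Of these, 7 had an unadjusted p under 0.05, among them Egr2, Fosl2 (−0.44), Egr3 (−0.4) and Fosb (−0.34). Their median difference was −0.26 at 12 months and −0.011 at 6 months. Without mouse HdhQ150-1023 the median change was −0.35 with 20 of 21 below zero, and without mouse WT-454 it was −0.18 with 15 of 21 and 4 at an unadjusted p under 0.05. In labelled females it was −0.13. Clock genes had 14 of 18 below zero and a median of −0.093, led by the period gene Per2 (−0.43) and the repressor Ciart (−0.45). The time of day of tissue collection is not given in the labels used here.

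Potassium channel genes had 32 of 41 below zero (median −0.098), led by the channel-interacting protein Kcnip3 (−0.47), and calcium signalling genes 18 of 30 (median −0.052). Presynaptic (−0.063), glutamate receptor (−0.031), GABA receptor (−0.012) and glucocorticoid response (−0.034) genes also had medians below zero. Without mouse WT-454 the medians of glutamate and GABA receptor genes were −0.075 and −0.069, and without mouse WT-1011 they were 0.0052 and 0.032. Without mouse HdhQ150-462 those of calcium signalling and presynaptic genes were −0.0063 and −0.018.

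Among lists with positive medians, clustered protocadherins, adhesion proteins whose combinations label single neurons, had 20 of 21 changes above zero and a median of 0.26. Their median difference was 0.23 at 12 months and −0.012 at 6 months, and the median change was 0.13 without mouse WT-454 and 0.087 in labelled females. Proteasome subunits had 24 of 31 above zero and a median of 0.13. Their median difference was 0.068 at 12 months and −0.14 at 6 months. In this list 11 had an unadjusted p under 0.05, of which Psma1, with a change of 0.42, had the smallest. Psma1 was 8.34 in mouse WT-454, against 9.03 to 9.06 in the other WT mice of 12 months. Without mouse WT-454, 3 subunits had such a p and the list's median change was 0.075. Cholesterol synthesis genes had 16 of 19 above zero (median 0.053). Without mouse WT-454, 13 of the 19 were above zero and their median was 0.073. The medians of respiratory chain (0.048), ribosomal protein (0.043), heat shock (0.0059), interferon response (0.0032) and RNA polymerase II genes (−0.014) lay within 0.05 of zero. Without mouse WT-454 the ribosomal and heat shock medians were −0.024 and −0.037, and the RNA polymerase II median was −0.064. The interferon median was −0.035 without mouse HdhQ150-1023.

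**Figure D5:**
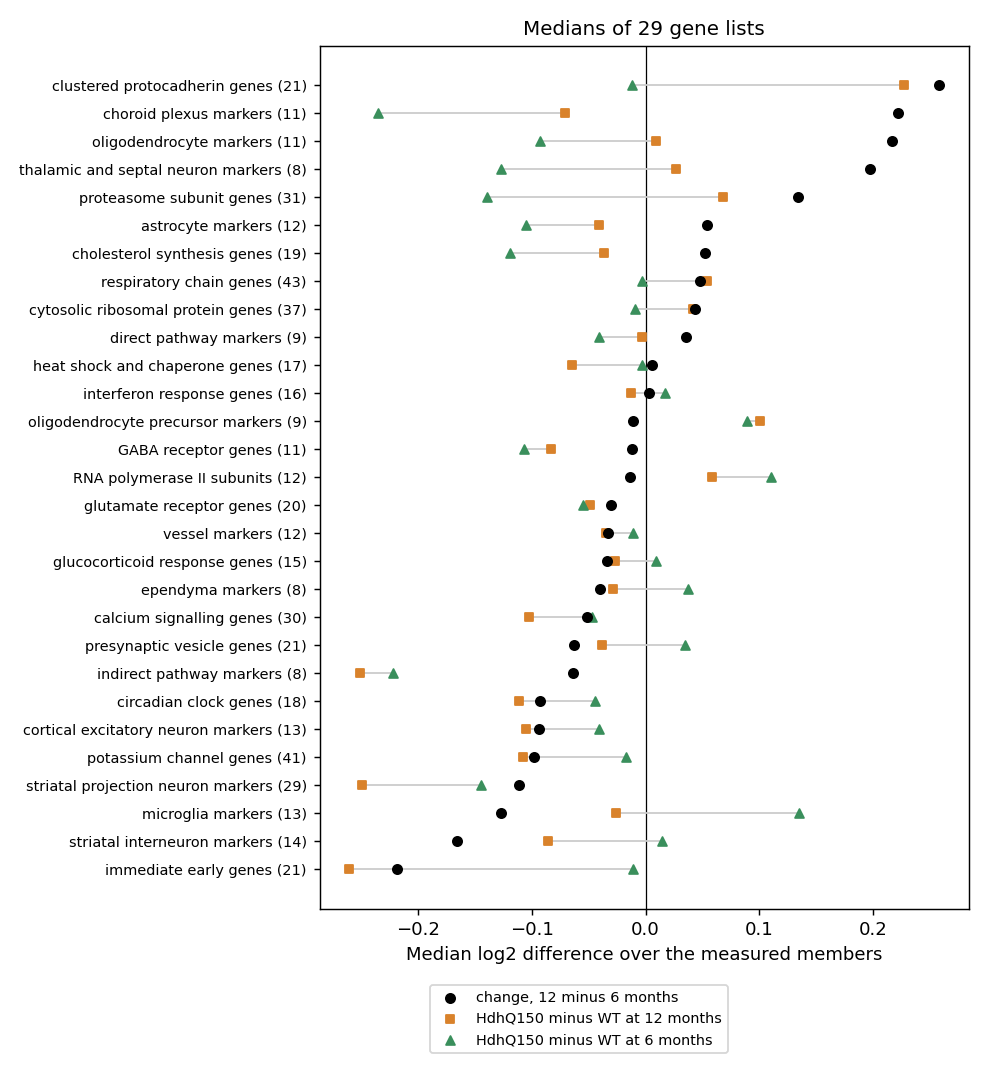
Median over the measured members of 29 gene lists (number of members in brackets) of the change, 12 minus 6 months (circles), and of HdhQ150 minus WT at 12 months (squares) and at 6 months (triangles), in log2 units. The medians of the change run from −0.22 for immediate early genes to 0.26 for clustered protocadherin genes.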

How the data were processed

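The deposited values are RMA log2 levels from whole-transcript arrays, computed by the authors in Affymetrix Expression Console, per the submitters' processing notes, which name no version. Scanner files were not used here, so background correction and scan batches were not examined, and precision is limited by how many arrays there are. Array medians ran from 6.91 to 7.05. Of 35556 probe sets, 21789 had 1 gene symbol; where a gene had several (999 genes), the one with the highest mean was kept, which left 19938 genes. Symbols were updated through Entrez IDs to GRCm38.p6 for 21698 probe sets.

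A limma model (version 3.58.1, R 4.3.3; lmFit, then eBayes with an intensity trend) was fitted to all 29 arrays with 6 group means and the labelled sex, which left 22 residual degrees of freedom. P-values are two-sided, adjusted by Benjamini and Hochberg over all genes at 0.05, with no filter on dim probe sets. Errors after ± are standard errors of fitted differences unless marked SD. The labels do not give litters, so the p-values measure the spread between these mice. The code was tested on simulated data, and 36 alternatives were run, 21 of them leaving out 1 mouse.

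The genes and lists were chosen with earlier results of these data known. Named were the 10 genes of smallest p in each direction of the change, chosen striatal genes, the 10 of smallest p at each age, and up to 4 per list, predicted genes skipped. Ryr2, Ryr3, Slc4a11, Gabra2 and Pdk4, and which genes to show mouse by mouse, were picked after their values were seen.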

Additional observations from a re-analysis of the deposited data

Results flagged for a closer look

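Ryr1 passed the test of the difference between ages, with a change of −0.779. Within the groups of 5 or 6 mice, 14 of 172 sets of values held a mouse far from the others. Chance flags about 1 in 20 such sets, and sets from the same mice are not independent. Mouse HdhQ150-1023, the 6-month HdhQ150 mouse whose Xist level goes against its label, was highest of its group for Ryr1 (7.71, next 7.55) and for Htt (8.88, next 8.77). Among 12-month WT mice, Camk1g was highest in mouse WT-527 (8.83, next 8.67) and Gpx6 in mouse WT-461 (8.58, next 8.17).

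Mouse WT-454 of 12 months was lowest of its group in 5 list means, given relative to each gene's mean over the 21 mice: proteasome subunits (−0.338, next −0.0313), clustered protocadherins (−0.514, next −0.0276), glutamate receptors (−0.184, next −0.0221), GABA receptors (−0.319, next −0.0463) and calcium signalling genes (−0.0805, next 0.0551). Mouse HdhQ150-462 of 12 months was lowest in projection neuron markers (−0.13, next 0.0069) and highest in thalamic and septal markers (0.173, next −0.273). At 6 months, mouse HdhQ150-1017 was highest in choroid plexus markers (1.03, next −0.0152), mouse HdhQ150-1016 lowest in interneuron markers (0.113, next 0.202) and mouse WT-1020 highest in oligodendrocyte markers (0.33, next −0.0317).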

How the results depend on the processing

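The count of 1 gene past the threshold, lower, was 1 in 32 of 36 alternatives, and the count of higher genes was 0 in all 36 (unadjusted p under 0.05 gave 21 to 2205 genes in both directions). It was 0 when a fold of 1.2 had to be exceeded, where Ryr1 stayed at −0.779 with an adjusted p of 0.309. It was 2, Ryr1 and Abi3bp, without mice WT-454 and HdhQ150-1023 together, in labelled females without mouse HdhQ150-1023 (chosen after seeing the data) and without mouse WT-1004. Leaving out single mice gave 1 to 2. The Ryr1 change ran from −0.858 to −0.732 over all 36. Near-zero changes turned sign, the cause not tested. Insig1 was −0.00773 with no sex term, −0.00428 with mouse HdhQ150-1023 entered as male, −0.0266 in labelled females, −0.0297 without both mice and −0.00801 with array weights. Kcng1 was 0.00131 with mouse HdhQ150-1023 as male, 0.0451 in labelled females, 0.0237 without both mice and 0.00846 in labelled females without mouse HdhQ150-1023. Enpp6 was −0.0487 without both mice, −0.106 with array weights and −0.0265 in labelled females without mouse HdhQ150-1023. Leaving out single mice gave Insig1 −0.071 to 0.0821, Kcng1 −0.0525 to 0.0471, Enpp6 −0.0113 to 0.127 and Htt −0.0773 to 0.00375. No paired analysis was possible because each mouse has its own number and none is shared between groups. Background correction and scan batch could not be varied, since scanner files were not used here.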
